A study of Bos taurus with 138 samples.

Results

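Fully grown bovine oocytes at the germinal vesicle (GV) stage hold a large store of mRNA, and the gradients described here separated that mRNA by the size of the particle carrying it. The members are the light fractions F3 to F5, which the study assigned to monosomes, and the heavy fractions F8 to F10, which it assigned to polysomes. They make up 12 of the 138 libraries of the series. The fractions were taken by name, following the study's grouping. The study had based that grouping on rRNA measured in each fraction and on principal component and correlation analyses of these libraries. F1 and F2, the top of the gradient, were left out, and F6 and F7 were used for profiles only.

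Each of 2 gradients, A and B, was loaded with a cleared lysate of a pool of Bos taurus GV oocytes that had been aspirated from ovaries of slaughtered cows, freed of cumulus cells and treated with cycloheximide, a drug that freezes ribosomes on mRNA. The animals' genotype and age are not given in the sources used here, and all GV libraries share this treatment. MII oocytes, used for 1 comparison, had been matured in vitro from such oocytes to metaphase of the second meiotic division, with 2 gradients of their own. Counts of F8, F9 and F10 of a gradient were summed to a heavy pool and counts of F3, F4 and F5 to a light pool, so that every test on GV oocytes rests on 2 heavy and 2 light pools.

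Ribosomes load onto an mRNA one after the other, and an mRNA bearing many ribosomes sediments faster than one bearing a single ribosome or a repressive particle. A short coding sequence has room for fewer ribosomes than a long one. The GV oocyte has nearly ceased transcription and keeps many mRNAs with short poly(A) tails silent until meiosis resumes, whereas other mRNAs are translated during growth, among them those for the zona pellucida, the glycoprotein coat of the egg. Levels below are CPM, counts scaled to a common library size with TMM factors, so they give the composition of the RNA in a pool and not the share of an mRNA's molecules that lay there. Since the RNA recovered per fraction was not analysed here, a larger share of an mRNA in heavy fractions and a smaller pool of other RNA there cannot be told apart.

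The 12 libraries held between 10242212 and 15265059 counts, with a median of 11398004, and between 11141 and 14093 genes above 0. A level of 3 counts in a library corresponded to 0.197 to 0.293 CPM over F3 to F10. Between gradients, Pearson's r across genes was 0.956 for the heavy pools and 0.973 for the light pools, against 0.894 (A) and 0.886 (B) between the heavy and light pools of 1 gradient. F10 had the lowest r between gradients, 0.854, and results that rest on it are also given without it. All 14 oocyte markers were above 0 in every library from F3 to F10, and their summed level was 21100 to 40600 CPM in the 6 heavy and 15500 to 20200 CPM in the 6 light libraries. The 20 markers of cumulus and granulosa cells summed to 831 to 1340 CPM in heavy and 1040 to 1440 CPM in light libraries, most of it from STAR, with means of 947 and 992 CPM. Between 11 and 18 of the 20 were above 0 in a library, and 9 were above 0 in all 16, among them the aromatase gene CYP19A1 (means of 1.78 and 1.74 CPM) and SERPINE2 (111 and 115 CPM). TNFAIP6 was at 0 in all 16, and FSHR, the receptor that defines granulosa cells, in 13. The 12 markers of blood and stroma summed to 299 to 472 CPM in heavy and 306 to 673 CPM in light libraries, most of it from VWF. Of these 12, 5 to 9 were above 0 in a library, HBA, HBM, LYZ, VWF and ACTA2 were above 0 in all 16, and HBB and COL3A1 were at 0 in all 16. Of these 2 lists, INHA had 14.7 and 20.3 CPM in heavy and 1.74 and 0.816 CPM in light pools, and HBA 19.8 and 38.6 CPM in heavy and 10.2 and 4.40 CPM in light pools; their part in other results was not tested.

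Of 13137 genes tested, 1249 were higher in the heavy pools (9.51%) and 1123 were lower (8.55%) at an adjusted p below 0.05 in edgeR's quasi-likelihood test. A fold change above 2 was reached by 1235 and 1073 of them. The shares of 9.51% and 8.55% are the background for the counts of each list below. The median log2 heavy over light was 1.72 among the called higher genes and -1.62 among the called lower genes, against 0.01 over all genes. Genes called higher took 15.0% (A) and 17.1% (B) of the counts of the heavy pools but 4.72% and 4.47% of the light pools. Genes called lower took 12.3% and 11.6% of the heavy pools and 26.9% and 28.9% of the light pools. The balance differed with abundance, though not in 1 direction: of the 3284 genes with the highest mean level, 17.0% were called lower and 11.9% higher, and of the next 3284, 9.07% were called lower and 16.3% higher. Of the 3284 below these, 5.51% were lower and 8.86% higher, and of the 3285 with the lowest levels 2.62% were lower and 0.944% higher.

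The 2 gradients are 2 lysates. The p-values rest on the spread between the 2 pools of a kind, which edgeR moderated with the spread of other genes. The main fit did not pair the heavy and light pools of a gradient. The log2 ratio of heavy over light had the same sign in both gradients for 70.9% of all genes, with r = 0.643 across genes, which are not independent replicates. When the spread was estimated over 24 pools of all 6 stages, 47 genes were called higher and 27 lower, and 22 of the called genes named here stayed called and 78 did not. Of the marker lists, 9 of 14 oocyte markers were higher and 1 was lower, 1 of 16 tested markers of cumulus and granulosa cells was higher (INHA at 3.78), and 1 of 6 tested markers of blood and stroma was higher (HBA at 2.00, not called without F10 at adjusted p = 0.0615 or without the light pool of B at adjusted p = 0.0879). With library totals in place of TMM factors, the split was 1560 higher and 793 lower, and the median log2 ratio over all genes was 0.19.

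**Figure D1:**
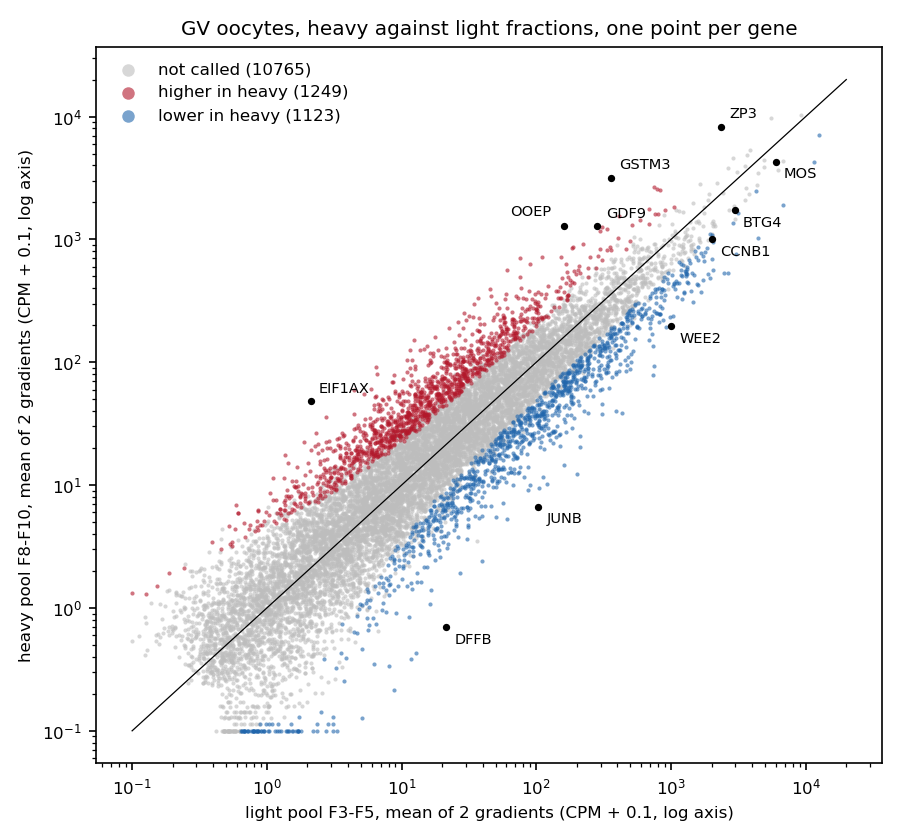
Mean level of each tested gene in the light pools (x axis, CPM + 0.1, log scale) against the heavy pools (y axis, same scale) of the 2 GV gradients, with equal levels on the diagonal. The 1249 genes called higher in heavy pools are red, the 1123 called lower are blue, the 10765 others are grey, and 11 genes described in the text are labelled in black.

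Levels of the called genes were also followed through the single fractions. Among genes called higher, the highest of the levels in F3 to F10 lay in F8, F9 or F10 for 94.2% in gradient A and 97.8% in gradient B. Among genes called lower, it lay in F3, F4 or F5 for 89.1% and 91.5%. These shares follow from the choice of the genes and are a description. F3 was the single most frequent peak of called lower genes, with 564 of 1123 in A and 600 in B. F10 was that of called higher genes, with 652 of 1249 in A and 569 in B. Without F10, 820 of the 1249 remained called. F6 and F7, which the pools did not use, held intermediate levels: the median of called higher genes, relative to each gene's mean over the 8 fractions, went from -0.16 to -0.06 on the log2 scale in A and from -0.27 to 0.30 in B. The largest median step of the called higher genes came between F7 and F8 in A (0.69) and between F6 and F7 in B (0.58).

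**Figure D2:**
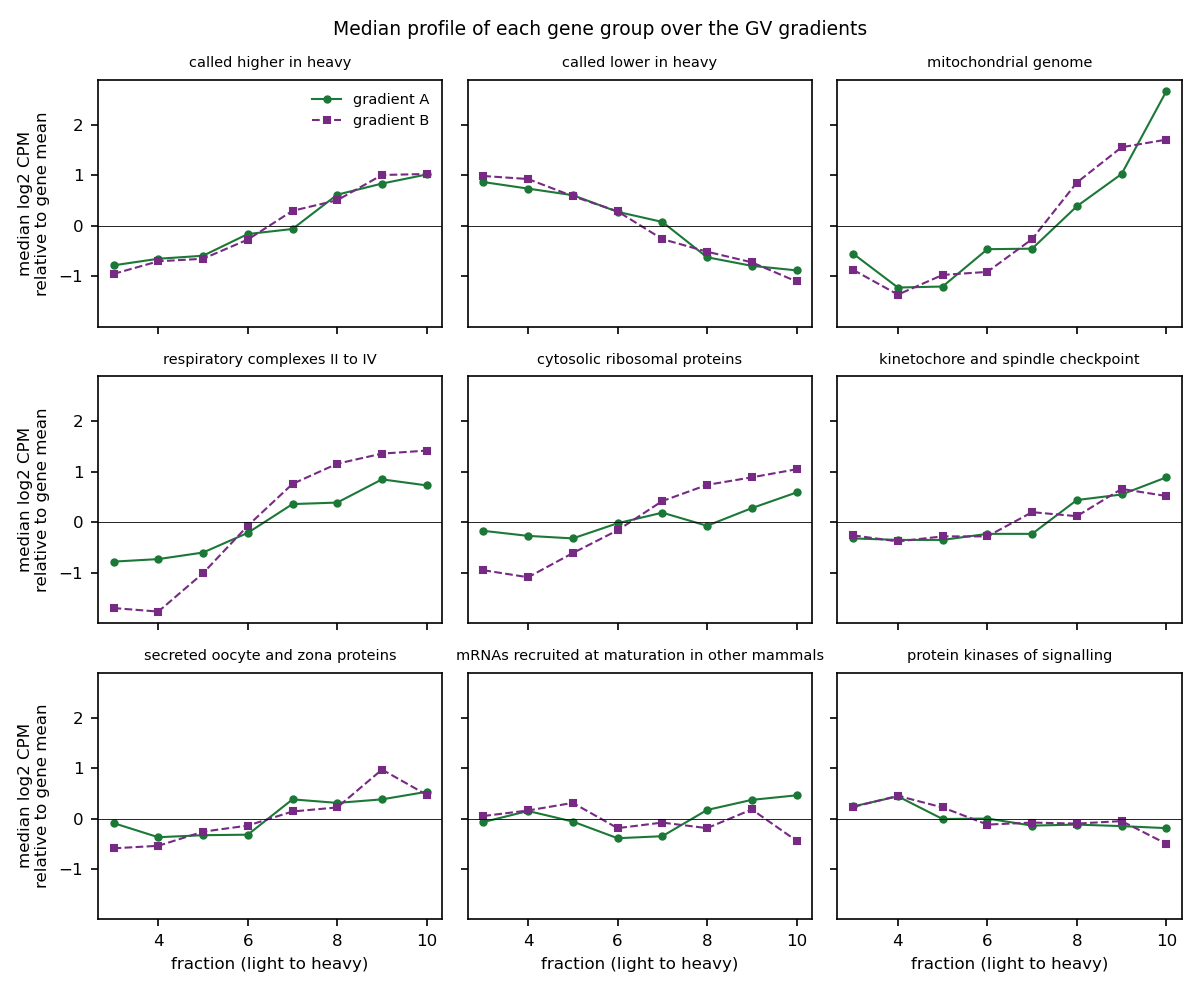
Median log2 level relative to each gene's own mean over F3 to F10 (y axis) in each fraction (x axis), for the called genes and 7 gene lists, with gradient A as a solid and gradient B as a dashed line. The choice of called genes leads their medians to change sign from light to heavy fractions. The crossing fell between F7 and F8 in A and between F6 and F7 in B. The mitochondrial genome reaches the highest values of these groups in F10, 2.67 in A and 1.71 in B.

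Several mRNAs of the egg coat and of the oocyte's growth factors had higher levels in the heavy than in the light pools. Of 13 tested genes for secreted and zona proteins, 6 were higher in heavy pools and 0 lower, with a median log2 ratio of 0.96 against 0.01 over all genes. In the fit over 24 pools 0 were called. ZP3, a zona glycoprotein that binds sperm, stood at 6260 and 10300 CPM in the heavy pools and at 2850 and 1840 CPM in the light pools. The heavy values of both gradients lay above both light values, a log2 difference of 1.82 ± 0.31 (SE implied by edgeR's moderated test, adjusted p = 0.0105). Within the gradients its log2 ratio was 1.09 in A and 2.48 in B, a spread that ± does not measure. ZP4 followed with 1.71 ± 0.33 (adjusted p = 0.0137). ZP2, which has to be cleaved to block polyspermy, was at 1120 and 1540 CPM in heavy and 746 and 634 CPM in light pools, a smaller log2 difference of 0.95 ± 0.26 (adjusted p = 0.0404). In A it had 997 CPM in F3, 986 CPM in F8, 934 CPM in F9 and 1310 CPM in F10.

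GDF9 and BMP15 are the TGF-beta family ligands through which the oocyte instructs its cumulus cells. GDF9 had 946 and 1610 CPM in heavy pools and 283 and 284 CPM in light pools, a log2 difference of 2.17 ± 0.31 (adjusted p = 0.00751). Its level stayed between 255 and 338 CPM through F3 to F5 of both gradients and reached 1150 CPM in F10 of A and 1950 CPM in F9 of B. BMP15 had 1460 and 2020 CPM in heavy and 808 and 986 CPM in light pools, a log2 difference of 0.96 ± 0.26 (adjusted p = 0.0387). The 2 ligands thus differed in size of effect, though the difference between them was not tested. Without F10, neither BMP15 (0.91, adjusted p = 0.0601) nor ZP2 (0.68, adjusted p = 0.104) was called. BMP15 also lost its call without the heavy pool of B (0.66, adjusted p = 0.246) or the light pool of A (0.81, adjusted p = 0.0718), and ZP2 without the heavy pool of A (1.15, adjusted p = 0.0514), the heavy pool of B (0.65, adjusted p = 0.258) or the light pool of B (0.82, adjusted p = 0.0595).

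The subcortical maternal complex, a protein lattice under the egg membrane needed for the first cleavages, and other maternal effect genes were split. Of 22 tested, 5 were higher and 3 lower (median 0.42). OOEP, a core member of the complex, showed a log2 difference of 3.0 ± 0.37 (adjusted p = 0.00716): it had 996 and 1570 CPM in heavy and 204 and 117 CPM in light pools. NLRP14 was higher by 1.93 ± 0.33, DPPA3, which protects maternal DNA methylation after fertilisation, by 1.25 ± 0.26, and DNMT1, the maintenance DNA methyltransferase, by 1.67 ± 0.31. NLRP5, a partner of OOEP in that complex, had 2300 and 2890 CPM in heavy and 3270 and 3890 CPM in light pools, a log2 value of -0.46 ± 0.23 that missed the threshold (adjusted p = 0.189).

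The 3 lower genes of this group encode regulators of transcription. HSF1, the heat shock factor, had 281 and 289 CPM in heavy and 952 and 715 CPM in light pools, a log2 difference of -1.55 ± 0.26 (adjusted p = 0.0103). NOBOX, an oocyte homeobox factor, was at -1.23 ± 0.27 (adjusted p = 0.0189) and lost its call without the heavy pool of A (-1.17, adjusted p = 0.0716). SMARCA4, a chromatin remodelling ATPase, was at -1.11. DPPA3 lost its call without the heavy pool of B (1.19, adjusted p = 0.0551). For ZAR1, an RNA binding protein that stores maternal mRNA, the log2 value was -0.67 (adjusted p = 0.149), and for NPM2 and H1FOO, the oocyte's histone chaperone and linker histone, it was 0.23 (adjusted p = 0.64) and 0.30 (adjusted p = 0.401).

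**Figure D3:**
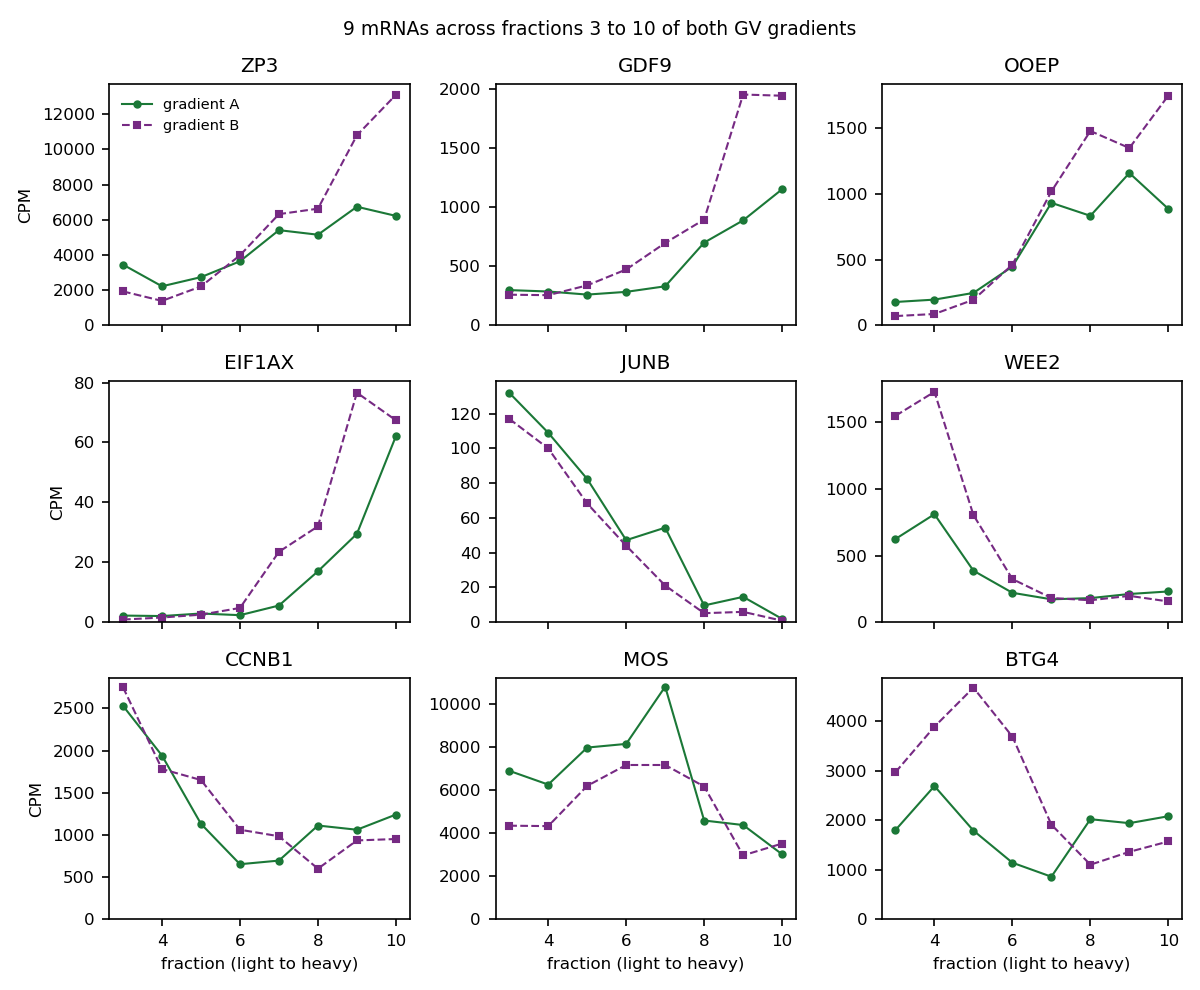
Level in CPM (y axis, linear, from 0) of 9 mRNAs in each fraction from F3 to F10 (x axis) of gradient A (solid) and gradient B (dashed). ZP3, GDF9, OOEP and EIF1AX are highest in F9 or F10 of both gradients. JUNB, WEE2 and CCNB1 are highest in F3 or F4, MOS peaks in F7, and BTG4 differs in shape between the gradients.

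mRNAs that other mammals hold back until meiotic maturation were mostly not called. Of 25 tested, 2 were higher in heavy pools, 2 were lower and 21 were not called, with a median of 0.07; over all genes 9.51% were higher and 8.55% lower, so these counts do not set the group apart. WEE2, the kinase that keeps CDK1 inactive in the arrested oocyte, had 216 and 178 CPM in heavy and 617 and 1380 CPM in light pools. Both gradients had their highest WEE2 level in F4 (811 and 1730 CPM), and the log2 difference was -2.34 ± 0.39 (adjusted p = 0.00986). CCNB1, the cyclin that activates CDK1 at meiotic resumption, had 1180 and 841 CPM in heavy and 1940 and 2070 CPM in light pools, a log2 difference of -0.99 ± 0.25 (adjusted p = 0.0313). Its profile was not monotonic in A, where it fell to 651 CPM in F6 and stood at 1240 CPM in F10. The CCNB1 call was lost with library totals (-0.81, adjusted p = 0.0657) and without the heavy pool of B (-0.81, adjusted p = 0.16).

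MOS, the kinase that later holds the egg in metaphase II, was among the most abundant of these mRNAs. It had 4140 and 4420 CPM in heavy and 7000 and 4950 CPM in light pools, a log2 value of -0.48 ± 0.23 (adjusted p = 0.18), and its level peaked in F7 of both gradients, at 10800 and 7160 CPM. BTG4, an adaptor of the CCR4-NOT deadenylase that clears maternal mRNA, had 2090 and 1370 CPM in heavy and 2090 and 3860 CPM in light pools (-0.78 ± 0.34, adjusted p = 0.142). It peaked in F4 of A and F5 of B, and its log2 ratio of heavy over light was -0.04 in A and -1.49 in B. Without the light pool of B, MOS was called (-0.72, adjusted p = 0.0163), and without the light pool of A, so was BTG4 (-1.16, adjusted p = 0.0197).

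Other members of this group were not called, CCNB2, a second B-type cyclin, at 0.58 ± 0.25 (adjusted p = 0.134), TPX2, a spindle assembly factor, at 0.79 ± 0.30 (adjusted p = 0.0978), and DAZL, an RNA binding protein of germ cells, at -0.38 ± 0.39 (adjusted p = 0.547). PLAT, tissue plasminogen activator, had under 10 CPM in each pool and a log2 value of 0.07 ± 0.57. The 2 higher members were BUB1B (1.82 ± 0.35), a spindle checkpoint kinase, and CKAP2 (1.34 ± 0.35), a spindle protein. CKAP2 was not called without F10 (1.14, adjusted p = 0.053), without the heavy pool of A (0.95, adjusted p = 0.146), or without the light pool of A (1.30, adjusted p = 0.0925) or of B (1.37, adjusted p = 0.0679). In the wider list of cyclins, cell cycle kinases and subunits of the anaphase promoting complex, 4 of 43 were higher and 5 lower (median 0.28). With 9.51% higher and 8.55% lower over all genes, these counts do not set the list apart. The lower ones were CCNB1, WEE2, CCNE1, FZR1, an activator of that complex which maintains GV arrest, and ANAPC7 (-3.27 ± 0.45, adjusted p = 0.00751). The 4 higher were CCNB3, CKS2 (1.52), ARPP19 (1.44) and ANAPC4, a count that was 7 with the gradient as a block, 7 without the light pool of B and 1 without the light pool of A. ARPP19 was not called without the heavy pool of A (adjusted p = 0.0503), the light pool of A (adjusted p = 0.154) or the light pool of B (adjusted p = 0.0992).

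Kinetochore and spindle checkpoint mRNAs mostly had higher levels in the heavy pools. Of 46 tested, 35 had a log2 ratio above 0, 22 were called higher in heavy pools and 1 was called lower, with a median of 1.03. CENPF, a large protein of the outer kinetochore, rose in A from 12.5 CPM in F3 to 340 CPM in F8 and in B from 6.59 CPM in F3 to 466 CPM in F9. Its pools had 324 and 345 CPM against 47.2 and 26.5 CPM, a log2 difference of 3.18 ± 0.36 (adjusted p = 0.00716). SPC24, a small subunit of the NDC80 complex that grips microtubules, was higher by 3.06 ± 0.46. The other NDC80 subunits were called as well, NDC80 at 1.63, NUF2 at 2.72 and SPC25 at 1.68, and so were the 2 shugoshins that protect sister cohesion, SGO1 at 1.51 and SGO2 at 2.25. MAD1L1, a spindle checkpoint protein, was the exception, with 41.8 and 34.8 CPM in heavy and 184 and 298 CPM in light pools (-2.65 ± 0.34). The number of higher members lay between 16 and 25 under the other settings except the fit over 24 pools, where it was 2.

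Energy metabolism gave the highest list medians. All 13 mRNAs encoded by the mitochondrial genome had a log2 ratio above 0 (median 3.03), and 12 of them were called higher. ND5, a proton-pumping subunit of complex I, had 112 and 49.5 CPM in heavy and 7.66 and 5.29 CPM in light pools (3.64 ± 0.48, adjusted p = 0.00726), and ATP6, a membrane subunit of ATP synthase, had 177 and 74.4 CPM against 16.3 and 6.68 CPM (3.46 ± 0.57). The mRNA that missed the threshold was ND4L at 2.48 (adjusted p = 0.0737), which had under 4 CPM in each pool. These mRNAs are translated inside mitochondria by the organelle's own ribosomes, so their place in the gradient is not a reading of cytosolic polysomes. ATP6 and ATP8, and ND4 and ND4L, overlap in the mitochondrial genome and ND6 lies on the opposite strand, so their counts could not be separated with certainty.

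Nuclear genes for the respiratory chain went the same way. In complexes II to IV, 18 of 24 tested were higher and 0 lower (median 2.28), in complex I 17 of 37 were higher and 0 lower (median 1.26), and in ATP synthase 10 of 16 were higher and 0 lower (median 1.25). NDUFA4, a subunit of cytochrome c oxidase despite its name, had 64.2 and 120 CPM in heavy and 8.70 and 4.06 CPM in light pools (3.85 ± 0.50, adjusted p = 0.00726). COX6A1, another subunit of that enzyme, had 438 and 978 CPM against 99.8 and 52.3 CPM (3.22 ± 0.47), with a level in B that climbed from 28.8 CPM in F3 to 1270 CPM in F10. In complex I, NDUFA5 (3.26 ± 0.49) and NDUFA13 (3.14 ± 0.45), accessory subunits, had the largest called differences at this level.

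Gradient B separated these genes further than gradient A. The list median of the log2 ratio was 0.50 in A and 1.95 in B for complex I, 1.57 and 2.87 for complexes II to IV, and 0.94 and 2.01 for ATP synthase, while for the mitochondrial genome it was 2.78 and 2.45. In ATP synthase, ATP5MC3, a subunit of the membrane ring, was higher by 2.28 ± 0.38 and ATP5ME by 2.62 ± 0.58, whereas ATP5F1B, the catalytic beta subunit, had 218 and 361 CPM against 167 and 156 CPM and was not called (0.84 ± 0.31, adjusted p = 0.0969). CYCS, the electron carrier cytochrome c, was at 0.64 ± 0.31 (adjusted p = 0.183). The count for ATP synthase was 5 without the heavy pool of B and 6 without F10. In the fit over 24 pools, 5 genes of complex I, 5 of complexes II to IV, 1 of ATP synthase and 3 of the mitochondrial genome were called higher. Coding lengths were not analysed here.

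Mitochondrial ribosomal proteins, which are made in the cytosol, followed less closely. Of 80 tested, 12 were higher and 2 lower (median 0.29), and with the gradient as a block 19 were higher. MRPS18C (2.55 ± 0.41) and MRPS10 (1.97 ± 0.39) had the largest increases at this level, and MRPS22 (-1.36 ± 0.29) and MRPL44 (-1.02 ± 0.30) were the lower ones. The count of higher members was 7 without F10 and 7 without the light pool of B, where 7 were lower. MRPL44 was not called with the block (-1.03, adjusted p = 0.0542), with library totals (-0.84, adjusted p = 0.0958) or without any 1 of the 4 pools (adjusted p = 0.0544 to 0.193). MRPS22 was not called without the heavy pool of B (-1.30, adjusted p = 0.0646).

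mRNAs of the translation machinery itself begin with a pyrimidine tract that couples their loading to mTOR signalling. Of 76 tested cytosolic ribosomal protein genes, 29 were higher in heavy pools and 0 were lower (median 1.19). RPL5, a partner of the 5S rRNA, had 46.1 and 76.0 CPM in heavy and 6.97 and 4.77 CPM in light pools (3.38 ± 0.41, adjusted p = 0.00716), and RPS29 was higher by 2.69 ± 0.61. The gradients differed here too: the list median was 0.57 in A, with 55 of 76 above 0, and 1.81 in B, with 74 of 76 above 0. The number of called members was 45 without the light pool of A, 19 without the light pool of B and 18 without F10. In the fit over 24 pools 1 member was called higher. Ribosomal protein genes have many near-identical processed copies in mammalian genomes, and estimated counts can be divided among such copies.

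Translation factors with the same kind of start were mixed, with 6 of 19 higher, 2 lower and a median of 0.19. NACA, a ribosome-bound chaperone subunit, had 325 and 331 CPM in heavy and 83.2 and 84.4 CPM in light pools (1.97 ± 0.27, adjusted p = 0.00746). TPT1, a growth-related protein, was higher by 1.66 ± 0.36 (adjusted p = 0.0192), but not without F10 (1.2, adjusted p = 0.0766) or without the light pool of B (1.33, adjusted p = 0.0561). EEF1A1, which delivers aminoacyl-tRNA to the ribosome, had 401 and 336 CPM in heavy and 424 and 410 CPM in light pools (-0.18 ± 0.25, adjusted p = 0.673). EEF1D, a guanine exchange factor for EEF1A1, was lower by -1.31 ± 0.30, and EIF4B, a helper of the cap-binding complex, by -1.17 ± 0.33. Both were lost without either heavy pool (EEF1D at adjusted p = 0.071 and 0.0576, EIF4B at 0.109 and 0.103), EEF1D also without the light pool of A (adjusted p = 0.0517), and EIF4B without the light pool of B (adjusted p = 0.156) and with library totals (adjusted p = 0.08). The count of higher factors was 1 without F10, 2 without the light pool of B and 3 without the heavy or the light pool of A.

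The largest increase of all genes named by rank was that of EIF1AX, the initiation factor that helps the small ribosomal subunit to scan. Its level was under 3 CPM in F3 to F5 of both gradients and reached 62.1 CPM in F10 of A and 76.6 CPM in F9 of B. The pools had 37.6 and 59.1 CPM against 2.37 and 1.66 CPM, a log2 difference of 4.59 ± 0.43 (adjusted p = 0.00716).

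Protein quality control was divided within single complexes. Of 32 proteasome genes, 9 were higher and 6 lower (median 0.20). Among the higher were PSMA3, PSMA6, PSMB2, PSMB4 and PSMB6 of the catalytic core, and among the lower PSMC3, PSMD2, PSMD3, PSMD4, PSMD8 and PSMD11 of the regulatory cap, while PSMC6, PSMD1, PSMD6 and PSMD14 of the cap were higher as well. PSMB4 had 63.6 and 146 CPM in heavy and 18.4 and 13.8 CPM in light pools (2.70 ± 0.45), and PSMA3 was higher by 2.41 ± 0.30. PSMD3 had 38.7 and 41.3 CPM against 181 and 273 CPM (-2.51 ± 0.32), with a level that fell from F3 to F10 in A at rho = -1.0 and in B at rho = -0.98 over 8 fractions of 1 lysate each. PSMD2 had 112 and 133 CPM against 424 and 626 CPM (-2.10 ± 0.30).

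Of 40 chaperones, 12 were higher and 4 lower (median 0.77). PFDN2, a prefoldin subunit, was higher by 2.32 ± 0.43 and HSP90B1, the HSP90 of the endoplasmic reticulum, by 1.99 ± 0.29, with 167 and 136 CPM in heavy and 37.7 and 38.7 CPM in light pools. PDIA4 (-2.12 ± 0.52) and CALR (-2.07 ± 0.43), which fold proteins in the same compartment, were lower, and neither was called without the light pool of B (PDIA4 adjusted p = 0.0854, CALR adjusted p = 0.0998), nor CALR without F10 (adjusted p = 0.0609). Of 25 redox defence genes, 10 were higher and 1 was lower (median 1.24). GSTM3, a glutathione transferase with close paralogs, had 2230 and 4150 CPM in heavy and 457 and 256 CPM in light pools (3.16 ± 0.40), and PRDX4, a peroxiredoxin of the secretory pathway, was higher by 2.72 ± 0.39. GLRX3 was the lower one (-1.19 ± 0.34) and was lost with library totals (adjusted p = 0.0838) and without the heavy pool of B (adjusted p = 0.167) or the light pool of B (adjusted p = 0.11).

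In the lysosome list 9 of 54 were higher and 2 lower (median 0.50). ATP6V0B, a membrane subunit of the vacuolar proton pump, had 269 and 521 CPM in heavy and 50.2 and 40.1 CPM in light pools (3.13 ± 0.39), and ASAH1, acid ceramidase, was higher by 1.84 ± 0.36. HEXA, a hexosaminidase subunit, was lower (-1.76 ± 0.33), with 75.1 and 97.9 CPM against 358 and 229 CPM. The count of lower members was 5 without the heavy pool of B and 1 without either light pool or without F10.

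Genes for the machinery that stores and silences maternal mRNA were divided: of 44 tested, 8 were lower, 4 were higher and 32 were not called, with a median of 0.07. SYMPK, the scaffold of the polyadenylation complex, was lower by -2.51 ± 0.30. YBX1, a packaging protein of stored mRNA, was also lower (-1.59), as were NANOS1, CPSF1, CPSF4, CNOT3 and EDC4. CPSF3, the endonuclease of the same 3' end complex, was higher by 2.13 ± 0.32, with 57.7 CPM in both heavy pools and 11.9 and 14.5 CPM in light pools, and so were the deadenylase PARN (1.40 ± 0.30), PABPC4 and PAIP1. PARN was lost without the heavy pool of A (1.30, adjusted p = 0.0534), and the count of higher members was 2 there and 7 with the block.

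Chromatin enzymes and signalling kinases had medians below that of all genes. Of 70 histone and DNA modifying enzymes, 11 were lower and 6 higher (median -0.44), and of 82 protein kinases, 14 were lower and 8 higher (median -0.36). KAT8, a histone H4 acetyltransferase, had 27.0 and 23.4 CPM in heavy and 218 and 207 CPM in light pools (-3.07 ± 0.30, adjusted p = 0.00716), and HDAC6, a tubulin deacetylase, was lower by -2.87 ± 0.37. KMT2C, a large histone H3 methyltransferase, was higher by 1.75 ± 0.37, with 216 and 233 CPM against 45.0 and 88.6 CPM. MAP3K3, a kinase of the MAP kinase cascades, was lower by -2.21 ± 0.34. ROCK1, a kinase of the cytoskeleton, was higher by 2.71 ± 0.35, and CLK4 by 1.86 ± 0.37. The count of higher kinases was 2 without the light pool of A and 5 without F10, the count of lower kinases was 22 without the heavy pool of B, and the count of higher chromatin enzymes was 2 without the light pool of A, 3 without the light pool of B and 3 without the heavy pool of A.

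Histones and their assembly factors were mixed, with 4 of 25 higher and 2 lower (median 0.23). ATRX, a remodeller that deposits histone H3.3, had 61.6 and 57.1 CPM in heavy and 5.73 and 2.99 CPM in light pools (3.77 ± 0.42), and SUPT16H, of the FACT complex, was higher by 2.41 ± 0.34. The histone variants H2AFY (-1.27 ± 0.34) and H2AFV (-1.21 ± 0.28) were lower, and each lost its call without 3 of the 4 pools (H2AFY at adjusted p = 0.146, 0.0687 and 0.061, H2AFV at 0.0876, 0.0743 and 0.0517). The spliceosome was evenly divided, with 9 of 63 higher and 9 lower (median 0.14): SF3A1, a subunit of the U2 particle, was lower by -3.26 ± 0.41 and DHX16, a splicing helicase, by -2.10 ± 0.37, while SF3B6, of the same particle as SF3A1, was higher by 2.19 ± 0.35 and LSM7 by 1.81 ± 0.46. LSM7 was not called without the heavy pool of B (adjusted p = 0.0812) or the light pool of B (adjusted p = 0.0751), and the count of higher splicing genes was 4 without F10 and 5 without either light pool, that of lower ones 5 with library totals.

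Of 239 tested zinc finger genes named ZNF, 20 were lower and 14 higher (median -0.03). The shares over all genes were 8.55% lower and 9.51% higher, so neither count was in excess. Among the called members were ZNF598 (-2.25 ± 0.39) and ZNF646 (-2.23 ± 0.35) on the light side and ZNF800 (2.30 ± 0.43) and ZNF529 (2.22 ± 0.41) on the heavy side. ZNF598, a sensor of collided ribosomes, had 7.07 and 10.2 CPM in heavy and 31.4 and 50.7 CPM in light pools. ZNF800 was not called without the light pool of A (2.11, adjusted p = 0.0514). The 2 counts ranged from 13 to 46 lower and from 4 to 24 higher over the other settings apart from the fit over 24 pools. Among 17 mRNAs with a textbook translational switch, 1 was higher and 2 were lower (median 0.17), counts too small to set the group apart. GADD45A (-1.90 ± 0.53) and PPP1R15A (-1.40 ± 0.35), both of the stress response, were lower, and AMD1, a polyamine enzyme with an upstream reading frame, was higher (0.97 ± 0.28). AMD1 was not called with the gradient as a block (0.96, adjusted p = 0.0654), without F10 (0.89, adjusted p = 0.0694) or without any 1 of the 4 pools (adjusted p = 0.0701 to 0.212). GADD45A was not called without the heavy pool of A (adjusted p = 0.0808) or the light pool of B (adjusted p = 0.221), and PPP1R15A not without the heavy pool of B (adjusted p = 0.0539), the light pool of A (adjusted p = 0.107) or the light pool of B (adjusted p = 0.0773). ATF4, whose mRNA is translated under stress, and FTH1, the ferritin heavy chain, were at -0.45 (adjusted p = 0.304) and -0.63 (adjusted p = 0.255). For FTH1 the light pools differed, with 1590 CPM in A and 747 CPM in B, and without the light pool of B it was called (-1.08, adjusted p = 0.0137).

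**Figure D4:**
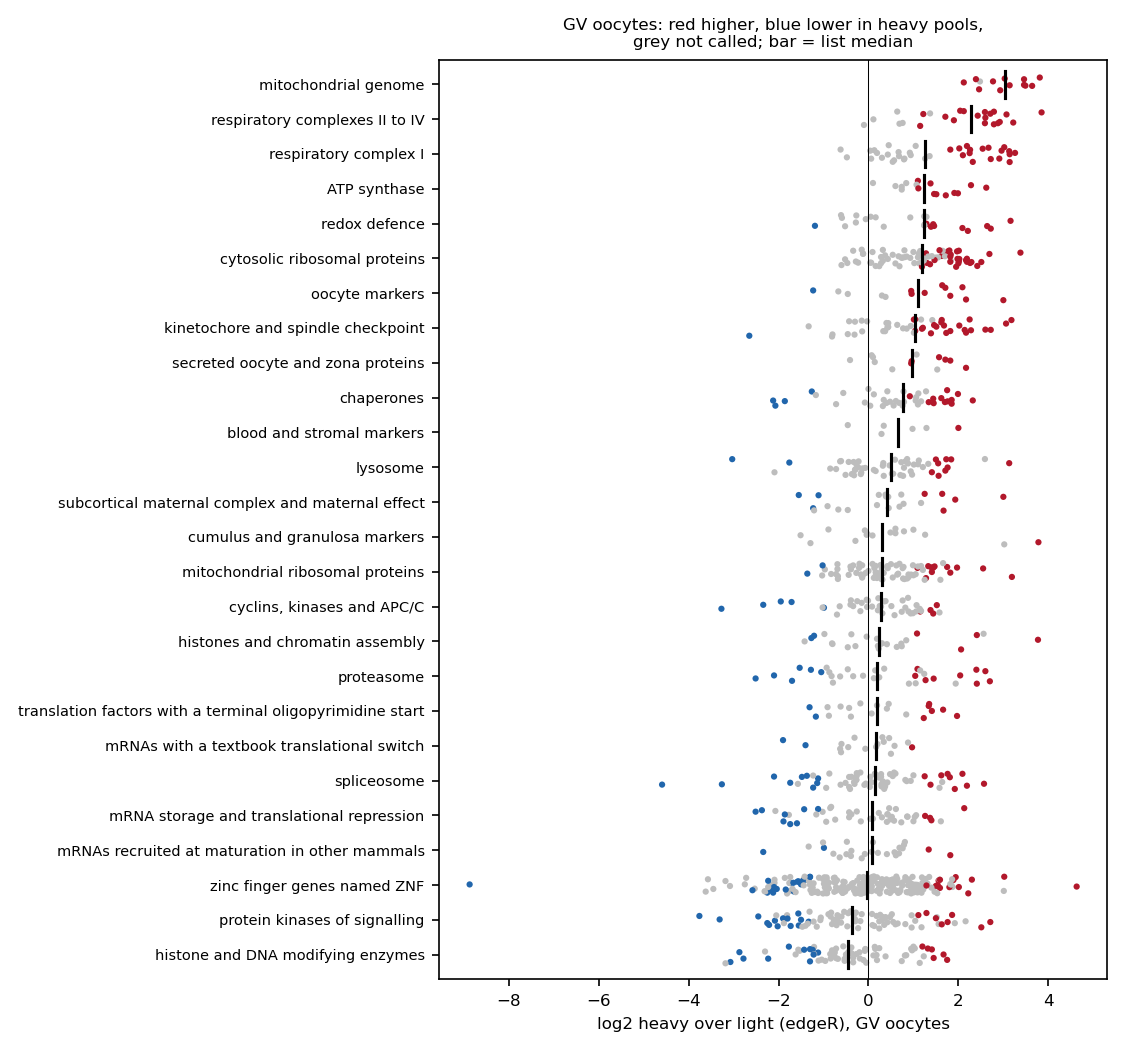
Log2 heavy over light (x axis) of every tested gene in 26 gene lists (y axis), with red for genes called higher, blue for genes called lower, grey for the others and a black bar at the list median. The lists are ordered by median, from 3.03 for the mitochondrial genome to -0.44 for histone and DNA modifying enzymes.

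Beyond the lists, the genes with the largest differences covered varied functions. They are ranked here among called genes with a mean of at least 10 CPM, since 13 less abundant genes on the heavy side and 78 on the light side had values at or beyond that of the last gene ranked. On the heavy side, after EIF1AX, NDUFA4 and ATRX, stood PRXL2B (3.76 ± 0.49), a peroxiredoxin-like enzyme, and UBL5 (3.65 ± 0.55), a ubiquitin-like splicing factor that had 96.6 and 209 CPM in heavy and 17.2 and 7.20 CPM in light pools. AKAP9, a scaffold of the Golgi and centrosome, was at 3.63 ± 0.51, DNAJC13, an endosomal co-chaperone, at 3.56 ± 0.43, and STK31, a germ cell kinase, at 3.40 ± 0.49 with 37.0 and 72.9 CPM against 3.53 and 6.82 CPM. AKAP9 reached its highest level in F6 of gradient A and in F9 of B, and the other 9 genes ranked on this side peaked in F9 or F10 of both gradients.

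On the light side the largest difference was that of DFFB, the nuclease that cuts DNA in apoptosis, with 0.497 and 0.695 CPM in heavy and 22.2 and 20.3 CPM in light pools (-5.15 ± 0.46, adjusted p = 0.00716). FBXO31, a ubiquitin ligase subunit, was at -4.10 ± 0.66, and CARS1, the cysteinyl-tRNA synthetase, at -4.05 ± 0.39 with 10.4 and 13.8 CPM against 151 and 251 CPM. JUNB, an immediate early transcription factor, fell along both gradients from 132 and 117 CPM in F3 to 1.91 and 0.875 CPM in F10 (pools -3.97 ± 0.44). CACTIN, a splicing regulator, was at -3.89 ± 0.75, FLCN, which acts on mTORC1 at the lysosome, at -3.58 ± 0.63, and NOC2L, an inhibitor of histone acetylation, at -3.54 ± 0.43. ATP2C2, a calcium and manganese pump of the Golgi, was the most abundant of these genes, with 37.6 and 40.0 CPM in heavy and 424 and 446 CPM in light pools (-3.49 ± 0.28). CC2D1A and TMEM214 were both at -3.46.

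Whether these differences were particular to the GV stage was tested against MII oocytes by the interaction of stage and pool over 8 pools. The heavy over light difference was higher in GV than in MII oocytes for 334 of 13618 genes (2.45%) and lower for 225 (1.65%), and the median interaction over all genes was -0.06. Below, heavier and lighter in a stage name only the sign of this interaction in CPM. They do not give the position of an mRNA's molecules in the gradient. These counts changed when a pool was left out: without any 1 of the 4 GV pools or of the 2 MII light pools, edgeR called 0 genes in either direction, although between 1112 and 1295 were higher and between 1133 and 1435 lower at an unadjusted p under 0.05, while without the MII heavy pool of A or of B it called 626 or 859 higher and 539 or 663 lower. Each gene named below as called in this comparison thus lost its call without any of those 6 pools.

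mRNAs of the translation machinery were among those heavier in GV oocytes, and so were members of other lists. Of 40 chaperones 7 were called higher and 0 lower, of 32 proteasome genes 5 and 1, and of 16 ATP synthase genes 3 and 0. EIF1AX had a log2 ratio of 3.45 and 4.47 in the 2 GV gradients and of -0.86 and 0.11 in the 2 MII gradients (interaction 4.82 ± 0.67, adjusted p = 0.0184). RPL5 had 2.51 and 3.72 in GV and -1.64 and -1.25 in MII (4.81 ± 0.55, adjusted p = 0.0184). Of the 76 ribosomal protein genes 6 were called higher and 0 lower (median interaction 0.84), and of the 19 translation factors 4 were higher and 1 lower (median 0.43). The 4 were TPT1 (3.27 ± 0.68), EIF3H (3.25 ± 0.63), NACA (2.90 ± 0.45) and EEF1A1 (1.84 ± 0.40). EIF3L, another subunit of the initiation factor eIF3, went the other way, with 356 and 467 CPM in heavy and 134 and 157 CPM in light pools of MII oocytes (-2.14 ± 0.40, adjusted p = 0.0243). AIMP1, a scaffold of tRNA synthetases, was at 4.19 ± 0.69. Without F10, TPT1 (2.59, adjusted p = 0.0621) and EIF3H (2.65, adjusted p = 0.0568) lost their calls.

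Of the 13 secreted oocyte and zona proteins, 2 were called heavier in GV oocytes and 1 heavier in MII oocytes. The log2 ratio of GDF9 changed sign. It was positive in both GV gradients, and MII oocytes had 757 and 1370 CPM in heavy and 1960 and 2190 CPM in light pools (interaction 3.12 ± 0.51, adjusted p = 0.0184). ZP2 was at 2.19 ± 0.42 (adjusted p = 0.0256), with 1180 and 1720 CPM in heavy and 3340 and 3580 CPM in light pools of MII oocytes. OOSP2, an oocyte-secreted protein, was the member heavier in MII oocytes, with 336 and 404 CPM in heavy and 41.7 and 47.8 CPM in light pools there (-2.93 ± 0.47, adjusted p = 0.0184). For ZP3 the interaction was 0.85 ± 0.67 (adjusted p = 0.492) and for BMP15 0.79 ± 0.39 (adjusted p = 0.262). H1FOO was heavier in MII oocytes, with 4980 and 3600 CPM in heavy and 1130 and 1120 CPM in light pools there (-1.65 ± 0.39, adjusted p = 0.0432), a call lost with the gradient as a block (-1.62, adjusted p = 0.0586), with library totals (-1.29, adjusted p = 0.0732) and without F10 (-1.45, adjusted p = 0.0601).

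Of the 25 mRNAs that other mammals recruit at maturation, 0 were called higher and 3 lower in this comparison (median interaction -0.46), and of the 43 cyclins, kinases and subunits of the anaphase-promoting complex 2 were higher and 5 lower. CDC20, an activator of that complex, had 1540 and 1200 CPM in heavy and 362 and 391 CPM in light pools of MII oocytes (-2.52 ± 0.39, adjusted p = 0.0184). CNOT7, a deadenylase, was at -2.94 ± 0.55 and the cyclin CCNA2 at -2.33 ± 0.53, a call that CCNA2 lost with library totals (-1.96, adjusted p = 0.0749). All 3 had higher levels in heavy than in light pools of MII oocytes. They were not called within GV oocytes, except CDC20 without the light pool of B (-0.79, adjusted p = 0.0286). Other regulators of maturation missed the threshold in the quasi-likelihood test. CCNB1 was at -1.46 ± 0.40 (adjusted p = 0.0668), WEE2 at -1.92 ± 0.55 (adjusted p = 0.0766), MOS at -1.20 ± 0.37 (adjusted p = 0.091) and BTG4 at -1.48 ± 0.52 (adjusted p = 0.125). In MII oocytes CCNB1 had 527 and 625 CPM in heavy and 458 and 385 CPM in light pools, and MOS 4540 and 5420 CPM against 2990 and 3150 CPM. CCNB1 was called without the MII heavy pool of A (-1.58, adjusted p = 0.0433), in DESeq2's Wald test (adjusted p = 0.0108) and in edgeR's likelihood ratio test (adjusted p = 0.0216). WEE2 was called by the same tests (adjusted p = 0.0101 and 0.0174) and by the quasi-likelihood test without the filter (adjusted p = 0.0493), and MOS by DESeq2 (adjusted p = 0.044). CCNB2 was at 1.78 ± 0.52 (adjusted p = 0.0789) and was called by both tests (adjusted p = 0.0234 and 0.0226), with the block (1.86, adjusted p = 0.0428), with library totals (2.13, adjusted p = 0.0393), without F10 (1.88, adjusted p = 0.0459) and without the MII heavy pool of B (2.42, adjusted p = 0.0109).

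Further genes heavier in GV oocytes were XRCC6 (3.86 ± 0.46), the Ku70 subunit of DNA end joining, PMS2 (3.94 ± 0.81) of mismatch repair, GSTM3 (3.02 ± 0.67), PSMA3 (3.02 ± 0.49), MRPS18C (3.04 ± 0.65), CPSF3 (2.91 ± 0.47), NDUFA4 (2.92 ± 0.65), PRDX4 (2.40 ± 0.48) and PFDN2 (2.40 ± 0.57). PFDN2 was not called with the block (2.33, adjusted p = 0.0568) or with equal weights of the fractions (2.36, adjusted p = 0.0517). PMS2 had 2.02 and 0.546 CPM in the MII heavy pools, so its value rests on low levels there. Genes lighter in GV than in MII oocytes were LRRC57 (-3.85 ± 0.43), RNPEP (-3.80 ± 0.52), an aminopeptidase, TMCO3 (-3.73 ± 0.61), TOGARAM2 (-3.72 ± 0.68), DFFB (-5.87 ± 0.82), CC2D1A (-3.40 ± 0.54), PSMD3 (-3.16 ± 0.68), CARS1 (-2.52 ± 0.58) and SYMPK (-2.25 ± 0.46). In MII oocytes DFFB had only 0.8 and 1.53 CPM in heavy and 0.723 and 0.701 CPM in light pools. TOGARAM2 had 7.68 and 5.42 CPM in heavy and 1.34 and 1.18 CPM in light pools there. Both values thus rest on low levels in MII oocytes. With library totals CARS1 (-2.15, adjusted p = 0.0751), PSMD3 (-2.79, adjusted p = 0.0523) and SYMPK (-1.87, adjusted p = 0.0575) were not called. TOGARAM2 was not called within GV oocytes (-1.32, adjusted p = 0.0635), but was called in 6 alternatives: with the block (-1.43, adjusted p = 0.00897), by DESeq2 (adjusted p = 0.0122), by the likelihood ratio test (adjusted p = 0.0191), without the filter (adjusted p = 0.04), without F10 (adjusted p = 0.046) and without the heavy pool of A (-2.02, adjusted p = 0.0108). IFITM1, an interferon-induced membrane protein, had the most negative fitted value (-7.47 ± 1.48), which rests on 0 and 0.0272 CPM in the GV heavy pools and depends on the prior count; in MII oocytes it had 26.6 and 63.6 CPM in heavy and 1.86 and 7.30 CPM in light pools.

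**Figure D5:**
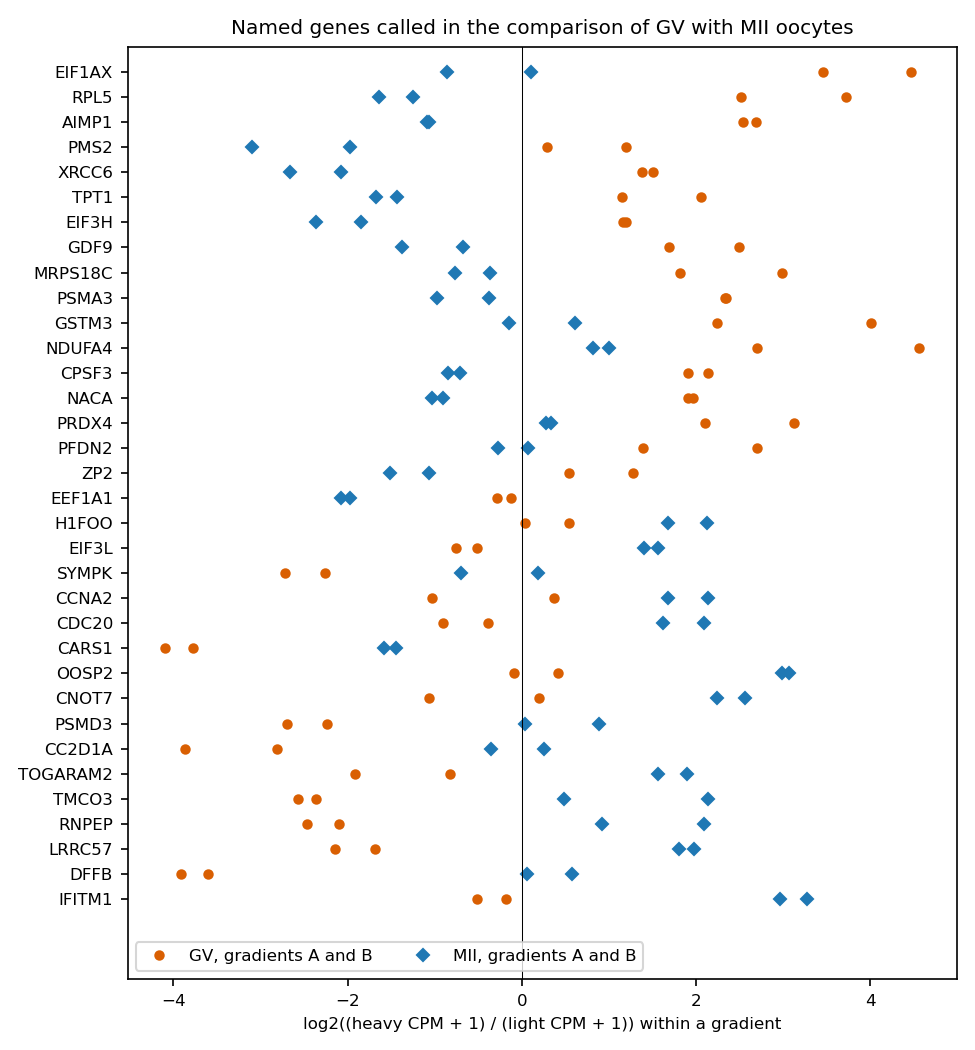
Log2 of heavy CPM + 1 over light CPM + 1 within each gradient (x axis) for the 34 named genes called in the comparison of stages (y axis), with GV gradients as orange circles and MII gradients as blue diamonds. The 2 stages do not overlap for any of these genes, which the choice of called genes favours. EIF1AX, at the top, lies at 3.45 and 4.47 in GV and at -0.86 and 0.11 in MII.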

How the data were processed

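RNA from sucrose gradient fractions of bovine GV and MII oocytes had been sequenced with Smart-seq2. The authors quantified reads with Salmon and deposited estimated counts per gene symbol without normalization (16706 symbols, 138 libraries, 11.7% of values not whole). The methods and the submitters' notes name different genome builds, the notes UMD3.1, so no coordinates are given. Strand use and the Salmon version are not given in the sources used here.

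Counts were summed within a gradient and rounded (33079633 to 42183070 per GV pool). edgeR 4.0.16 in R 4.3.3 (filterByExpr, TMM, glmQLFTest, Benjamini-Hochberg) was fitted to 4 GV pools, and to 8 GV and MII pools for the interaction. The sign ± gives a standard error, the absolute log2 difference over the square root of the F statistic. It is moderated over genes, ignores pairing and is not the spread between the ratios of the 2 gradients. The floor of 3 counts covers counting error only. Profile levels are log2(CPM + 1). A letter marks a gradient, so pools of a letter share a lysate; their deviations from group means had r = -0.083 over 11729 genes. No 2 GV libraries were identical. An exact permutation test of 2 against 2 pools cannot go below p = 0.333 and was not run. The fits were tested on simulated data.

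Named genes were the 10 with the largest called difference in each direction (mean of at least 10 CPM, pools apart), 2 per list and direction, 25 fixed names, of which CPEB1 was not in the table, and 5 per direction of the interaction; other members were named after their values were seen, and a few genes are not reported here. The members and lists were chosen with earlier results of these data known. The list of long noncoding RNAs had 0 of 14 symbols in the table. Alternatives were DESeq2 1.42.0, its size factors, library totals, the likelihood ratio test, no filter, a gradient block, equal weights of fractions, narrower pools, 24 pools of 6 stages and leaving out each pool; heavy pools without F10 were added after seeing the data. Protein lengths and sequences were not analysed here.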

Additional observations from a re-analysis of the deposited data

Results flagged for a closer look

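The heavy over light difference was tested between GV and MII oocytes, and 34 of the genes named above differed at an adjusted p below 0.05 by edgeR's interaction test. Positive log2 values, meaning a higher ratio of heavy over light CPM in GV than in MII oocytes, were those of EIF1AX (4.82), RPL5 (4.81), AIMP1 (4.19), PMS2 (3.94), XRCC6 (3.86), TPT1 (3.27), EIF3H (3.25), GDF9 (3.12), MRPS18C (3.04), GSTM3 (3.02), PSMA3 (3.02), NDUFA4 (2.92), CPSF3 (2.91), NACA (2.90), PFDN2 (2.40), PRDX4 (2.40), ZP2 (2.19) and EEF1A1 (1.84). Negative values were those of IFITM1 (-7.47), DFFB (-5.87), LRRC57 (-3.85), RNPEP (-3.80), TMCO3 (-3.73), TOGARAM2 (-3.72), CC2D1A (-3.40), PSMD3 (-3.16), CNOT7 (-2.94), OOSP2 (-2.93), CARS1 (-2.52), CDC20 (-2.52), CCNA2 (-2.33), SYMPK (-2.25), EIF3L (-2.14) and H1FOO (-1.65). In all 34 the GV gradients lay on one side of the MII gradients. The choice of called genes favours this, so it is a description and adds no evidence. The values of IFITM1, DFFB, TOGARAM2 and PMS2 rest on low levels in some pools, as given above. The groups of 2 pools are too small for a test of outlying samples.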

How the results depend on the processing

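The counts of genes higher and lower in GV heavy pools stayed within 1.5 times of 1249 and 1123 with DESeq2 size factors, library totals, no filter, the replicate block (1547 and 1336), equal weights, F9-F10 against F3-F4 and heavy pools without F10 (845 and 840), except that 1750 were lower in the DESeq2 Wald test, 1715 in the likelihood ratio test, and 47 and 27 were called over 24 pools. Leaving out 1 pool gave 862 to 1437 and 825 to 1545. Of the 1249 and 1123 genes, 820 and 767 remained called without F10, and 47 and 27 over 24 pools. The interaction counts of 334 and 225 became 610 and 128 with library totals, 918 and 952 with DESeq2, 895 and 795 with the likelihood ratio test, 453 and 363 without the filter, 141 and 117 with F9-F10 against F3-F4, and 0 to 859 and 0 to 663 when 1 pool was left out; 19 of its 34 named genes stayed called with the narrower pools. The cause of these shifts was not tested. Beside the changes given above, the paired fit with the block changed no call of a gene named in GV oocytes.

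Values near 0 turned sign for genes that were not called: PLAT at -0.18 without F10, -0.03 over 24 pools and -0.70 to 0.65 when 1 pool was left out, DAZL at -0.80 to 0.18 and FTH1 at -1.08 to 0.01 when 1 pool was left out, EEF1A1 at 0.00 with library totals, OOSP2 at -0.05 without F10, and OOSP2 at -0.18 to 0.54, CNOT7 at -0.91 to 0.08 and CCNA2 at -0.84 to 0.23 when 1 pool was left out. On simulated data with 50 genes changed at each fold, 4-fold changes were recovered in 46% of genes by the GV fit and in 10% by the interaction fit. False calls made up 0% of the calls of the GV fit and 6.9% of those of the interaction fit. The simulation changed fewer genes than were called here, and called differences of the GV fit went down to 0.78 on the log2 scale. These shares thus do not carry over to the deposited data, and a gene that was not called may still differ.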
